A study of Sus scrofa with 3 samples.

Results

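The miR-29 family was followed in small RNA libraries of porcine psoas major muscle, a skeletal muscle of the loin, from pigs aged 63, 98 or 161 d. Its members were the rows listed under a porcine mature name of number 29, which gave 3 miRNAs, ssc-miR-29a, ssc-miR-29b and ssc-miR-29c, of 276 porcine mature miRNAs in the 3 libraries. All 3 members were listed in every library. The 18 pigs were castrated male hybrids of Landrace, Large White and Duroc raised for fattening, and the groups were defined by age, with a diet whose protein and lysine content was lowered by weight stage as the animals grew, so that age and diet cannot be told apart. Total RNA of 6 pigs per age was pooled in equal amounts into 1 library, so that no spread between animals could be measured.

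MicroRNAs are short RNAs that guide a silencing complex to messenger RNAs, mainly through their seed, the bases 2 to 8 counted from the 5′ end. The miR-29 family is known for repressing genes of the extracellular matrix, among them fibrillar collagens, elastin and fibrillin, and it also acts on DNA methyltransferases. In skeletal muscle, miR-29 is known to promote myogenic differentiation and to restrain fibrosis. Its mature strands come from the 3′ arms of 4 hairpins that lie in 2 pairs in mammalian genomes.

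The mature sequences decide how far reads of the members can be told apart, and they are therefore given first, as the authors' files list them in DNA letters from 5′ to 3′. The bases AGCACCA of the family's seed are in capitals.
ssc-miR-29a: ctAGCACCAtctgaaatcggtta
ssc-miR-29b: tAGCACCAtttgaaatcagtgtt
ssc-miR-29c: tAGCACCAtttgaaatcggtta
The known ssc-miR-29a begins with an additional c, so that the family's seed stands at its bases 3 to 9. The reads listed under this name lacked that base in all 3 libraries, which brought the seed to bases 2 to 8 as in the other members. Counted from the first base before the seed, ssc-miR-29a and ssc-miR-29c differed at 1 of 22 bases (C10T). ssc-miR-29c and ssc-miR-29b differed at 3 of 22 bases (G18A, T21G and A22T), all of them outside the seed.

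The 4 hairpins are shown because their 3′ arms carry nearly all miR-29 reads, and because the position of each hairpin shows its partner. The known 3′ mature sequence is in capitals.
ssc-mir-29b-1: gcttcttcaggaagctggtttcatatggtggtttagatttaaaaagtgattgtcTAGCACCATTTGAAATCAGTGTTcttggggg
ssc-mir-29a: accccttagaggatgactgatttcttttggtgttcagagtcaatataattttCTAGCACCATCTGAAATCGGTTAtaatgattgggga
ssc-mir-29b-2: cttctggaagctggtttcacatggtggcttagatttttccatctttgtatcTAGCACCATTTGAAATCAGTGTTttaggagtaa
ssc-mir-29c: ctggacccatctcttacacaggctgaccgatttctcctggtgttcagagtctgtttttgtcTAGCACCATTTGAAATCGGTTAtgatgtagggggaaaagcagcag
The files placed ssc-mir-29b-1 at 19034818 to 19034902 and ssc-mir-29a at 19035224 to 19035311 on the plus strand of 1 genome sequence, with 321 bases between them. On a second genome sequence, ssc-mir-29b-2 lay at 148552438 to 148552521 and ssc-mir-29c at 148552989 to 148553094, also on the plus strand, with 467 bases between them. The build is not given in the sources used here. In the RefSeq annotation of Sscrofa11.1, MIR29B-1 neighboured MIR29A and MIR29B-2 neighboured MIR29C, with 0 other genes starting between the hairpins of either pair. ssc-miR-29b can thus come from either pair, whereas ssc-miR-29a and ssc-miR-29c each have 1 hairpin of their own.

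Over all names, the libraries of 63, 98 and 161 d held 1464699, 2418187 and 2242716 listed reads. Levels are given as normalised reads, the reads of all isoforms of a miRNA times the scaling factor of the study for the library. The factors were 1.34, 0.750 and 1.01. Of the markers of skeletal muscle, 7 of 7 were measured, and their summed level was 519729, 455649 and 627601 normalised reads. Red blood cell markers summed to between 1590 and 2705 normalised reads (2 of 2 measured), leukocyte markers to between 1340 and 2087 (3 of 4) and endothelial markers to between 11483 and 17719 (2 of 2), each of them highest at 98 d. The markers of fibroblasts and other mesenchyme summed to between 4976 and 5356 normalised reads (3 of 4 measured). The smooth muscle markers ssc-miR-143-3p and ssc-miR-145-5p summed to 18465 and 21445 normalised reads at 63 and 98 d and to 61325 at 161 d. No measured marker was at 0. With the factors of the study, the summed level of each of these 6 lists was higher at 161 d than at 63 d, as were the miR-29 members. The rise was small for mesenchyme, from 4976 to 5356 normalised reads. Relative to 63 d, the factor of 161 d was 0.748 in the study and 0.653 when scaled to the listed reads. With the latter, the mesenchyme sum would be lower at 161 d than at 63 d. The part of other cell types in the miR-29 levels was not tested. Some single markers, named after their values were seen, were lower at 161 d than at 63 d. These were ssc-miR-142-3p of leukocytes (145 and 97.5 normalised reads at 63 and 161 d), ssc-miR-206 of skeletal muscle (3735 and 2978) and ssc-miR-214 of mesenchyme (437 and 404). In bulk RNA, fewer cells of a type and less RNA per cell cannot be told apart.

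With the factors of the study, all members had their lowest level at 63 d and their highest at 161 d. The low point at 63 d held under the 4 other scalings that were run. For ssc-miR-29a it was narrow with edgeR's TMM factors (708 and 729 normalised reads at 63 and 98 d) and with the median of ratios (848 and 878). The order of 98 and 161 d did not hold under each of the 4 scalings. Per 1000000 listed reads, ssc-miR-29b was at 14.7, 30.1 and 27.1, and per 1000000 clean reads ssc-miR-29b was at 5.24, 15.8 and 11.9 and ssc-miR-29c at 47.6, 121 and 106. ssc-miR-29a, the most abundant member, had 791, 925 and 1417 normalised reads at 63, 98 and 161 d. Its 95% Poisson intervals, which cover counting error only, were 728 to 857, 874 to 978 and 1344 to 1493. The interval of 161 d thus stood apart from the others, and those of 63 and 98 d lay close together without overlap. ssc-miR-29c had 263, 419 and 546 normalised reads (intervals 227 to 302, 385 to 456 and 501 to 594), and none of its intervals overlapped. ssc-miR-29b, the least abundant member, had 28.9, 54.6 and 61.1 normalised reads from 21.5, 72.75 and 60.75 reads, counted at ssc-mir-29b-1 only. Its intervals of 18 to 44, 42.8 to 68.6 and 46.7 to 78.5 overlapped between neighbouring ages, but that of 63 d did not reach that of 161 d.

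The summed level of the 3 members was 1083, 1399 and 2024 normalised reads in order of age (intervals 1009 to 1160, 1336 to 1464 and 1937 to 2115). In this sum ssc-miR-29b was counted at ssc-mir-29b-1 only, and the family so counted held 0.0550%, 0.0771% and 0.0898% of all listed reads. With both hairpins of ssc-miR-29b the sum was 1113, 1454 and 2087 normalised reads. Among the 276 porcine miRNAs, ssc-miR-29a ranked 76th, 73rd and 64th at 63, 98 and 161 d. ssc-miR-29c ranked 118th, 104th and 98th, and ssc-miR-29b 199th, 181st and 178th. The order ssc-miR-29a, ssc-miR-29c, ssc-miR-29b was the same in every library, and the intervals of neighbouring members did not overlap.

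**Figure D1:**
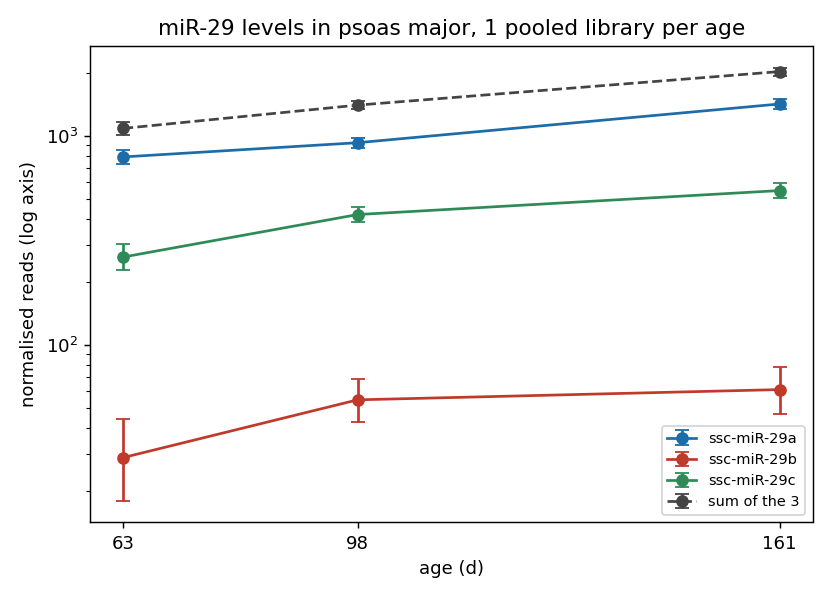
Normalised reads (log axis) of ssc-miR-29a, ssc-miR-29b, ssc-miR-29c and their sum (dashed) against age in days, with 1 pooled library per age and 95% Poisson intervals of the counts. With these factors each line has its lowest point at 63 d and its highest at 161 d, whereas ssc-miR-29b and ssc-miR-29c are highest at 98 d per 1000000 clean reads, and ssc-miR-29a stands at 925 normalised reads at 98 d and 1417 at 161 d.

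The comparison of the ages asks which miRNAs change while the muscle grows. The early interval below is that from 63 to 98 d, the late interval that from 98 to 161 d, and the whole interval that from 63 to 161 d. A miRNA was called where its fold change was above 2 or below 0.5 with an unadjusted p below 0.05 in an exact two-sided binomial test of the counts of 2 libraries, which compares these libraries rather than the ages and covers counting noise only. In the early interval, 0 of 3 members were called, beside 9.12% of 274 porcine miRNAs called higher and 6.57% called lower at 98 d. In the late interval, 0 of 3 members were called, beside 6.23% of 273 called higher and 5.13% lower at 161 d. In the whole interval, 2 of 3 members, ssc-miR-29b and ssc-miR-29c, were called higher at 161 d, beside 10% of 270 called higher and 8.52% lower.

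The fold change of ssc-miR-29c was 1.60 in the early interval (95% Clopper-Pearson interval 1.35 to 1.88, exact binomial p = 8.80e-09), 1.30 in the late one (1.16 to 1.47, p = 1.30e-05) and 2.08 over the whole (1.76 to 2.45, p = 5.36e-20). The last confidence interval holds 2, so that the side of the fold threshold is not settled by the counts. Scaled to the reads listed (CPM), the late fold change of ssc-miR-29c was 1.05 (exact binomial p = 0.451), and scaled to clean reads it turned to 0.87 (p = 0.0276). That of ssc-miR-29b was 1.89 in the early interval (1.14 to 3.13, exact binomial p = 0.00996) and 2.11 over the whole (1.26 to 3.55, p = 0.00259), where the confidence interval also holds 2. In the late interval the fold change of ssc-miR-29b was 1.12 with a confidence interval from 0.784 to 1.60, so that no difference was detectable at this depth (exact binomial p = 0.541), and it was 0.90 with CPM and 0.75 with clean reads. The most abundant member, ssc-miR-29a, had the smaller fold change in the early interval and the larger one in the late interval with the factors of the study. Its fold changes were 1.17 (1.06 to 1.29, exact binomial p = 0.00191) and 1.53 (1.42 to 1.65, p = 7.78e-28), which made 1.79 over the whole interval (1.62 to 1.97, p = 1.44e-34). This order did not hold with CPM, where ssc-miR-29a was at 1.27 early and 1.23 late, nor with clean reads, where it was at 1.87 early and 1.03 late (exact binomial p = 0.471 for the late one). With TMM factors and with the median of ratios its early fold change was 1.03, and no early difference was detectable (exact binomial p = 0.584 and 0.517). With the factors of the study, every exact binomial p below 0.05 stayed below it after Benjamini-Hochberg adjustment over all porcine miRNAs of a pair. The largest of these adjusted p-values was 0.0184, for ssc-miR-29b in the early interval.

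The median fold change of all porcine miRNAs under the factors of the study was 1.13 in the early, 1.01 in the late and 1.16 in the whole interval, or 0.18, 0.01 and 0.21 on the log2 scale. Relative to this median, ssc-miR-29a was at 1.03, 1.52 and 1.55, ssc-miR-29b at 1.67, 1.11 and 1.83, and ssc-miR-29c at 1.41, 1.30 and 1.80. With edgeR's TMM factors, where the median was within 0.02 of 0 on the log2 scale in each pair, the fold changes over the whole interval were 1.57 for ssc-miR-29a, 1.85 for ssc-miR-29b and 1.82 for ssc-miR-29c. All 3 were still higher at 161 d, and 0 of 3 were then called. Fold changes of the summed family reads were 1.29, 1.45 and 1.87 in the early, late and whole interval (confidence intervals 1.19 to 1.40, 1.36 to 1.54 and 1.72 to 2.03).

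**Figure D2:**
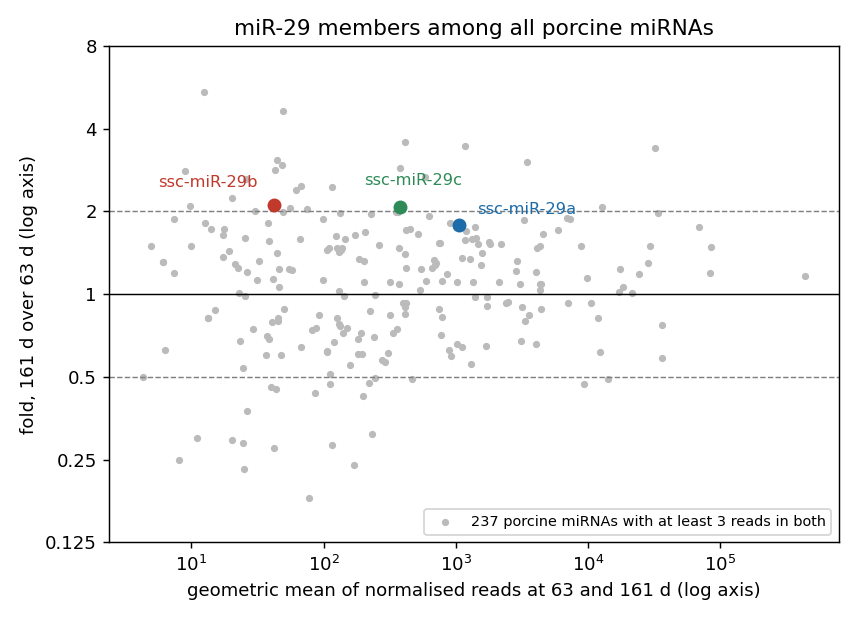
Fold change between 63 and 161 d (log axis) against the geometric mean of the normalised reads of both libraries (log axis) for the 237 porcine miRNAs with at least 3 reads in both, with the miR-29 members in colour and the fold limits of 2 and 0.5 dashed. ssc-miR-29b (2.11) and ssc-miR-29c (2.08) lie just above the upper limit and ssc-miR-29a (1.79) just below it.

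The reads behind ssc-miR-29a and ssc-miR-29c were partly the same. The files list 1 representative read for each arm, the read with the highest mapping score. The library of 63 d listed for ssc-miR-29a the known sequence without its first base, in 148 copies and without a mapping error. At 98 and 161 d the representative read under the same name carried 1 error against the hairpin, given as C11T in the known sequence with positions counted from its 5′ end. It was the representative read of ssc-miR-29c letter for letter, listed with the same 422 and 362 copies at both hairpins. The reads are shown with the seed in capitals.
ssc-miR-29a, 63 d: tAGCACCAtctgaaatcggtta
ssc-miR-29a, 98 and 161 d: tAGCACCAtttgaaatcggtt
ssc-miR-29c, all ages: tAGCACCAtttgaaatcggtt
ssc-miR-29b was represented by its known sequence at all ages, in 20, 72 and 73 copies. Of all porcine names listed in a library, 6 of 263, 6 of 268 and 8 of 265 shared their representative read with another porcine name, in order of age.

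A read that fits several hairpins was divided between them in the files. Before the division, the 3′ arm of ssc-mir-29a held 751, 1716 and 1853 reads at 63, 98 and 161 d, and 588.5, 1233.25 and 1409.25 were left after it. At the 3′ arm of ssc-mir-29c, 358, 1042 and 987 reads became 195.5, 559.25 and 543.25. The amount taken off, which is the reads of a hairpin less those listed for its arms and would include any reads that fit neither arm, was identical at both hairpins, at 162.5, 482.75 and 443.75 reads. This was 21.6%, 28.1% and 23.9% of the reads of ssc-miR-29a and 45.4%, 46.3% and 44.96% of those of ssc-miR-29c. The hairpins of ssc-miR-29b, which share the whole mature sequence, lost between 48.9% and 50.2% of their reads. Added over the 4 hairpins, the reads came to 828, 1938 and 2076.

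Mapping errors were unevenly spread over the hairpins. Of the reads left at ssc-mir-29a, 38.5%, 47.8% and 44.4% carried a mapping error at 63, 98 and 161 d, against 25.3%, 22.1% and 27.0% at ssc-mir-29c and between 11.1% and 16.5% at the hairpins of ssc-miR-29b. ssc-mir-29a had the highest share of the 4 hairpins in every library. At 98 and 161 d the representative read of ssc-miR-29c, without error at its own hairpin, was listed at ssc-mir-29a with 1 error. It had 422 and 362 copies there. A mapping error at ssc-mir-29a is thus not the same as an error of sequencing, and the part of this read in the shares was not tested.

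**Figure D3:**
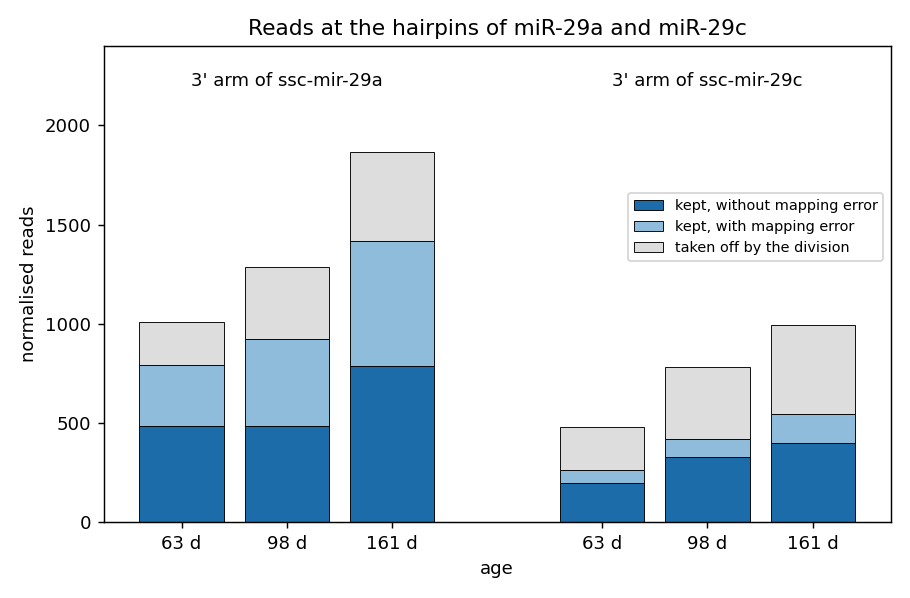
Normalised reads at the 3′ arms of ssc-mir-29a and ssc-mir-29c by age, stacked as reads kept without mapping error, reads kept with a mapping error and reads taken off by the division between hairpins. The reads of ssc-mir-29a without error are level between 63 and 98 d (487 and 483), and the part taken off has the same size at both hairpins.

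The early fold change of ssc-miR-29a was 1.17 with all reads and 0.99 with reads without a mapping error, while that of ssc-miR-29c was 1.60 and 1.66 with the same choices. Before the division, the fold changes of ssc-miR-29a were 1.28 (1.17 to 1.39), 1.45 and 1.85 in the early, late and whole interval. Of reads without a mapping error, ssc-miR-29a had 487, 483 and 787 normalised reads at 63, 98 and 161 d. That early fold change of 0.99 (interval 0.872 to 1.13, exact binomial p = 0.921) left no difference detectable, whereas the late one was 1.63 (1.47 to 1.81) and that over the whole interval 1.62 (1.43 to 1.84). If every divided read was divided between ssc-mir-29a and ssc-mir-29c alone, each kept as many shared reads as it lost. This was not exactly so at 98 and 161 d, where the 1233.25 and 1409.25 reads kept at ssc-mir-29a need some reads divided over more hairpins. The values after removal are therefore approximate. Leaving the shared reads, taken as equal to the reads lost, out of ssc-miR-29a gave 573, 563 and 971 normalised reads. The fold changes were then 0.98 (0.872 to 1.11), 1.72 (1.57 to 1.90) and 1.70 (1.51 to 1.91) in the early, late and whole interval. The same removal left ssc-miR-29c with 44.4, 57.4 and 100.1 normalised reads. The fold changes of these reads were 1.29 (0.856 to 2.02, exact binomial p = 0.233), 1.74 (1.28 to 2.37) and 2.26 (1.52 to 3.47). However, the removal also took off reads of the sequence of ssc-miR-29c itself. The 33, 76.5 and 99.5 reads left were fewer than the 135, 422 and 362 copies of its representative read, which had no mapping error. What was left is therefore not a measure of ssc-miR-29c, and no early or late change of this member can be read from it.

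ssc-miR-29c had 196, 327 and 399 normalised reads without a mapping error, with fold changes of 1.66 (1.38 to 2.02), 1.22 (1.06 to 1.40) and 2.03 (1.68 to 2.48). Before the division it had 481, 782 and 992 normalised reads, with fold changes of 1.62, 1.27 and 2.06. Copies of its representative read alone came to 181, 317 and 364 normalised reads, with an early fold change of 1.74 (1.43 to 2.13), and these rose 2.01-fold over the whole interval (1.64 to 2.46). With the factors of the study, ssc-miR-29c was called over the whole interval by each of these measures. They are overlapping sets of the same reads, so that they are not separate evidence, and each of their confidence intervals holds 2. For ssc-miR-29b, both hairpins together gave 59.1, 109 and 124 normalised reads and fold changes of 1.85 (1.31 to 2.66), 1.14 (0.889 to 1.46) and 2.10 (1.48 to 3.05). With reads without error the fold change over the whole interval was 1.998 (1.17 to 3.60), just below the limit of 2.

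**Figure D4:**
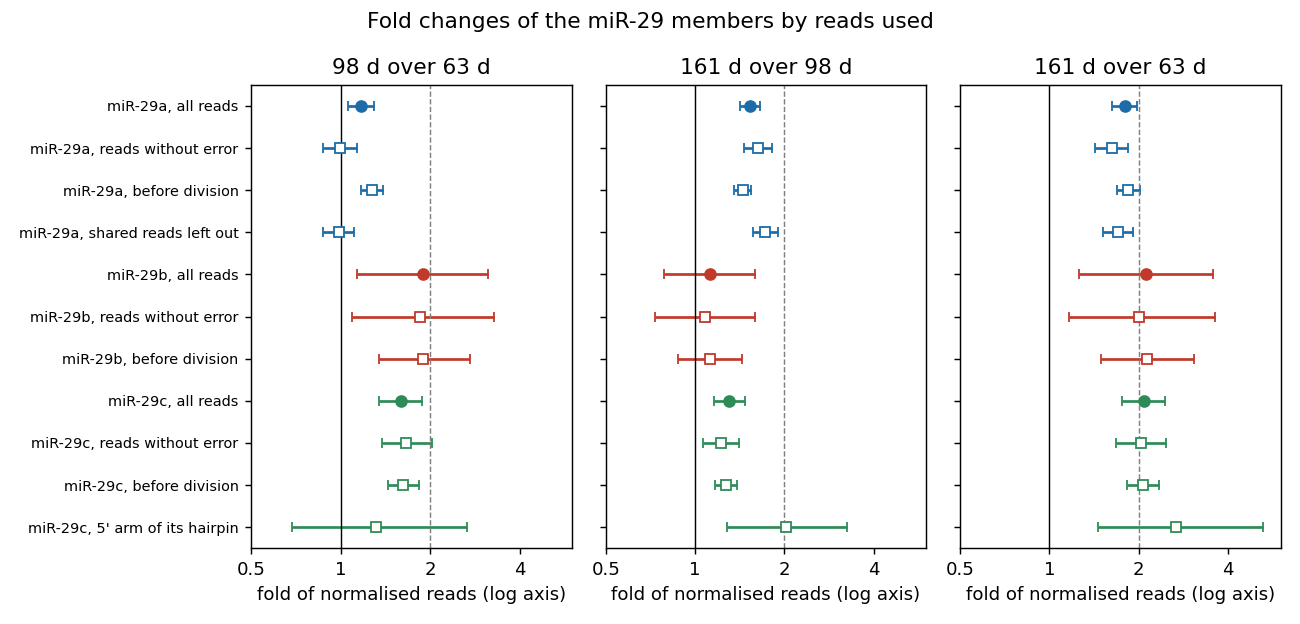
Fold changes of normalised reads (log axis) with 95% Clopper-Pearson intervals for the pairs 63 to 98 d, 98 to 161 d and 63 to 161 d, from all reads (filled) and from other subsets of the reads (open), with the fold limit of 2 dashed. For ssc-miR-29a between 63 and 98 d, reads without error (0.99) and reads left after removal of shared reads (0.98) lie at 1. They lie below all reads (1.17) and reads before division (1.28). For ssc-miR-29c the 3 values plotted for its 3′ arm lie between 1.60 and 1.66, and its value after removal of shared reads (1.29) is not plotted.

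Ratios within a library do not depend on the scaling. ssc-miR-29a made up 73.1%, 66.1% and 70.0% of the family reads in order of age (95% Wilson intervals 69.9 to 76.0, 63.9 to 68.2 and 68.0 to 72.0). ssc-miR-29c held 24.3%, 30.0% and 27.0%, and ssc-miR-29b held 2.67%, 3.90% and 3.02%. These shares and the ratios below count ssc-miR-29b at ssc-mir-29b-1 only. With both of its hairpins summed, the share of ssc-miR-29b was 5.31%, 7.51% and 5.95%. There were 3.01 reads of ssc-miR-29a for each read of ssc-miR-29c at 63 d, then 2.21 and 2.59. In Fisher's exact test the ratio differed between the libraries of 63 and 98 d (p = 0.00138, 0.00829 after adjustment over 6 comparisons). The other 2 comparisons with ssc-miR-29c (adjusted p = 0.0714 and 0.168) and the 3 with ssc-miR-29b (adjusted p between 0.137 and 0.624) did not pass. These tests compare libraries, and divided reads enter both counts. Reads without a mapping error gave ratios of 2.48, 1.48 and 1.97, with 98 d as the low point. Fisher's exact test was then passed for the early (adjusted p = 4.59e-05) and the late interval (adjusted p = 0.00317) but not for the whole (adjusted p = 0.0641). Reads without error were not free of the division. They came to 146, 435.5 and 396.75 reads at ssc-mir-29c, against the whole numbers 362, 644 and 783 at ssc-mir-29a. A division of such reads at ssc-mir-29c alone would raise these ratios, which was not tested. For ssc-miR-29b, such reads gave 19.1, 10.2 and 15.4 reads of ssc-miR-29a for each of its reads, and the early comparison passed the exact test (adjusted p = 0.0435), while the late and whole ones did not (adjusted p = 0.0604 and 0.508).

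The order of the members rested on the division. When the shared reads were all given to ssc-miR-29c, whose sequence the representative read had, its share was 44.4%, 55.9% and 49.0% at 63, 98 and 161 d, and that of ssc-miR-29a was 52.9%, 40.2% and 48.0%. ssc-miR-29c was then above ssc-miR-29a at 98 and 161 d. ssc-miR-29b was the least abundant member under each hairpin rule and read choice for which shares were taken. Shares were not taken after the removal of shared reads from ssc-miR-29c, which left 44.4, 57.4 and 100.1 normalised reads. Those values lie below ssc-miR-29b counted at both hairpins (59.1, 109 and 124).

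The 5′ arms of the hairpins, which pair with the mature strands, were listed under names of other species. They are mostly degraded and carry another seed, and their reads were not divided. The 5′ arm of ssc-mir-29c, listed as bta-miR-29d-5p with the sequence tgaccgatttctcctggtgtt, had 14, 33 and 50 reads, or 18.8, 24.8 and 50.3 normalised reads. It rose 2.03-fold in the late interval (1.28 to 3.25, exact binomial p = 0.00172) and 2.67-fold over the whole (1.45 to 5.23, p = 0.000572), and its early fold change was 1.32 (0.685 to 2.66, p = 0.449). The 3′ arm of the same hairpin had the larger fold change in the early interval and the 5′ arm in the late one, but the confidence intervals of both arms overlapped in each interval of age, and the difference between the arms was not tested.

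The other 5′ arms were near the limit of detection. That of ssc-mir-29a, listed as cgr-miR-29a-5p, had 1, 7 and 3 reads, although its 3′ arm held most of the family's reads. The 5′ arm of ssc-mir-29b-2, listed as mdo-miR-29b-2-5p, had 2, 4 and 3 reads. That of ssc-mir-29b-1, listed as cgr-miR-29b-5p, had 3 reads at 63 d and was not listed at 98 or 161 d. The floor of 3 reads that was set for a count of 0 corresponds to 2.25 and 3.02 normalised reads there. There were 10.9 to 16.9 reads of the 3′ arm for each read of the 5′ arm at ssc-mir-29c, against 176 to 589 at ssc-mir-29a. The 3′ reads were those after the division, which took off 45.4%, 46.3% and 44.96% at ssc-mir-29c. At ssc-mir-29a it took off 21.6%, 28.1% and 23.9%. The division thus widens the contrast, and the ratios of ssc-mir-29a rest on very few 5′ reads.

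Outside the 3 porcine names, the seed stood at bases 2 to 8 of the representative read under 2 other names. These were oan-miR-29a-3p, with 5, 3 and 7 reads in order of age, and hsa-miR-21-3p, with 1 read at 63 d, whose sequence beyond the seed was not that of a member.

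The pattern of the summed family over the 3 ages was most like those of ssc-miR-124a, ssc-miR-212 and ssc-miR-24-3p among 140 other porcine miRNAs with at least 100 normalised reads in each library. Likeness was the distance between the pairs of early and late log2 fold changes, and it rests on 3 libraries. ssc-miR-124a, best known from neurons, had 158, 185 and 265 normalised reads (distance 0.14), ssc-miR-212 had 116, 143 and 183 (distance 0.19) and ssc-miR-24-3p had 1776, 2180 and 2712 (distance 0.23).

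Other miRNAs known to act on matrix genes or fibrosis were compared from a list of 24 porcine names, of which 22 were measured. In the early interval 0 of them were called. In the late interval 3 were called higher and 0 lower, and over the whole interval 1 was called higher and 2 lower, beside the background shares given above. The median fold changes of the list were 1.17, 0.99 and 1.19 in the early, late and whole interval, beside 1.13, 1.01 and 1.16 of all porcine miRNAs. ssc-miR-143-3p, a miRNA of smooth muscle, had 17551, 20770 and 59774 normalised reads, a rise of 2.88-fold in the late interval (2.84 to 2.92) and 3.41-fold over the whole (3.34 to 3.47). Its cluster partner ssc-miR-145-5p rose 2.30-fold in the late interval (2.12 to 2.50), from 675 to 1552 normalised reads. ssc-miR-34a, named after its values were seen, was called at a low level in the same pair (7.13 and 17.1 normalised reads), with a confidence interval of 0.986 to 5.57 that includes 1 and an adjusted p of 0.0886 in the exact binomial test. ssc-miR-19b fell over the whole interval, from 321 to 152 normalised reads (fold change 0.474, interval 0.383 to 0.582). ssc-miR-19a, named after its values were seen, fell from 163 to 76.4 normalised reads (fold change 0.470). Both are known to act on connective tissue growth factor. Of the marker lists, ssc-miR-1 of skeletal muscle (2.36-fold, 24363 and 57392 normalised reads) and ssc-miR-144 of red blood cells (2.08-fold, 109 and 227 normalised reads) were called higher in the early interval, and the smooth muscle markers in the late interval.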

How the data were processed

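Small RNA of psoas major was sequenced from 1 pooled library per age (6 pigs each). Per the labels, the authors processed the reads with ACGT101-miR 4.2, which maps reads to miRBase hairpins and to the pig genome (build not given in the sources used here). The deposited files give counts, which are copies of each arm's representative read, and expected counts, the reads of all isoforms of an arm, in which the authors' pipeline divided a read that fits several hairpins. Neither was normalised. The authors' mapping allowed errors, and the expected counts are also split by error. The 63 d file has another layout than those of 98 and 161 d.

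Comparisons rest on the expected counts of all isoforms, rounded to whole numbers for tests. A miRNA at several hairpins was counted at the hairpin listed in most libraries (for ssc-miR-29b, ssc-mir-29b-1). Normalised reads are these counts times the authors' scaling factor, the ratio of normalised to raw values in the study's own table of porcine miRNAs. Its library totals of clean reads served for 1 alternative. Fold changes carry no pseudocount, and miRNAs with at least 1 read in either library were tested with an exact conditional binomial test (Clopper-Pearson intervals at 95%). Reads without molecular identifiers are not independent molecules, so that intervals, p-values and the floor of 3 counts (4.03, 2.25 and 3.02 normalised reads) cover counting error only. Reads before division are the reads of a hairpin less those of its 5′ arm. The named miRNAs were the 3 members, names that share their seed or hairpins, the 3 nearest in pattern, and, of the matrix and fibrosis list and the marker lists, those called with at least 100 normalised reads in each library, with exceptions said in the text. The members, lists and tests were chosen with earlier results of these data known. The alternatives were 4 other scalings, 2 other hairpin rules, reads without error, representative copies, a pseudocount of 1, a minimum of 10 counts, fold limits of 1.8 and 0.56, Benjamini-Hochberg adjustment, and the exact tests of Fisher and of edgeR, the latter with a biological coefficient of variation set to 0.2. Reads before division, and ssc-miR-29a without shared reads, were added after the data had been seen. The software was R 4.3.3, edgeR 4.0.16, Python 3.11.15, scipy 1.17.1, numpy 2.4.6 and matplotlib 3.10.9, and the fold and test functions were tested on simulated data. Columns of hairpin energies and scores were not used.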

Additional observations from a re-analysis of the deposited data

Results flagged for a closer look

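Reads that start with the whole known sequence of ssc-miR-29c and end with 2 further bases were listed under the platypus name oan-miR-29a-3p, outside the porcine names compared in the report. The read was tagcaccatttgaaatcggttaaa, and this string was found in 0 of the 4 porcine miR-29 hairpins. The name had 5 reads at 63 d and 7 at 161 d, above the floor of 3 reads that was set for a count of 0, and 3 reads at 98 d.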

How the results depend on the processing

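No paired analysis was possible because each age had 1 library. Each fold change was set beside 12 to 14 alternatives. Those that change only the test or the p-value adjustment could not change a fold change. The hairpin rules could not change that of ssc-miR-29a or ssc-miR-29c, which have 1 hairpin each. The members were higher at 161 d than at 63 d under every alternative run, from 1.56 to 1.92-fold for ssc-miR-29a, 1.85 to 2.73-fold for ssc-miR-29b and 1.81 to 2.23-fold for ssc-miR-29c, but the calls at 2-fold were lost under 3 of the 4 other scalings.

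With CPM over all listed reads, ssc-miR-29b was at 2.05 between 63 and 98 d (called), 0.90 between 98 and 161 d (reversed) and 1.85 between 63 and 161 d, and ssc-miR-29c was at 1.81 in the last pair, so that 1 member was called between 63 and 98 d and 0 between 63 and 161 d. With clean reads as denominator, the fold changes between 63 and 98 d were 3.02 for ssc-miR-29b, 2.55 for ssc-miR-29c and 2.06 for the sum (2 members called), those between 98 and 161 d reversed to 0.75, 0.87 and 0.97, and the sum was at 2.01 between 63 and 161 d. With TMM and with the median of ratios, 0 members were called between 63 and 161 d, with ssc-miR-29b at 1.85 and 1.87 and ssc-miR-29c at 1.82 and 1.84. With an assumed biological variation, ssc-miR-29b (2.11) no longer passed edgeR's exact test (p = 0.0650), which left 1 member called. With the same assumed variation, no early or late difference of any member or the sum had p below 0.05 in edgeR's exact test. Between 63 and 161 d, ssc-miR-29a, ssc-miR-29c and the sum stayed below 0.05 in edgeR's exact test. Fold limits of 1.8 and 0.56 gave 1 member between 63 and 98 d.

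With reads without error, ssc-miR-29a between 63 and 98 d reversed to 0.99, and ssc-miR-29b between 63 and 161 d was at 1.998, which left 1 member called. With shared reads left out, ssc-miR-29a between 63 and 98 d was at 0.98. Copies of the representative read put ssc-miR-29b at 2.01 between 63 and 98 d, which made 1 call, but at 98 and 161 d they count the read of ssc-miR-29c under ssc-miR-29a. The share of ssc-miR-29a at 63, 98 and 161 d was 68.7%, 56.4% and 63.6% with reads without error, 48.8%, 46.1% and 45.4% with those copies, and 52.9%, 40.2% and 48.0% with shared reads given to ssc-miR-29c. It was 63.6% and 67.9% at 98 and 161 d with all hairpins summed. Among the reads without error, those of ssc-miR-29c were still divided, which can raise the share of ssc-miR-29a. The causes of the differences between scalings were not tested. Depth limits ssc-miR-29b and the 5′ arms most.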
